A study of Mus musculus with 32 samples.

Results

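The type 2 vomeronasal receptors are 123 autosomal protein-coding mouse genes, taken as every such gene whose RefSeq symbol in the GRCm38 annotation starts with Vmn2r. Of these, 122 have a place on an assembled autosome, among 20560 placed autosomal protein-coding genes, and these 122 are described here. The remaining gene, Vmn2r122, lies on unplaced sequence of chromosome 4 (3536 to 11935) and was left out. Vmn2r-ps130 bears a pseudogene symbol but is annotated as protein-coding and was kept.

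The Polycomb marks H3K27me3 and H2AK119ub were profiled by CUT&Tag, in which an antibody tethers the transposase pAG-Tn5 to chromatin that carries a mark so that nearby DNA is cut and tagged. There were 32 samples of oocytes from mouse ovaries in 16 groups of 2. Wild-type (WT) oocytes were profiled for both marks before birth (E18.5) and on postnatal days 1 (P1), 6 (P6, non-growing) and 7 (P7, growing). PRC1cKO oocytes at P6 and P7 (H3K27me3) are labelled Ring1-/-; Ring1F/-; Ddx4-Cre, and their PRC1ctrl oocytes Ring1-/-; Rnf2F/+; Ddx4-Cre. The knockout label thus names Ring1 where the control names Rnf2 as the floxed gene, so which gene was floxed there was not settled; both PRC1 groups lack Ring1, and so are compared with each other without a Ring1 wild-type control of the same line. PRC2cKO oocytes at P6 (both marks) are labelled EedF/-; Ddx4-Cre, and their PRC2ctrl oocytes EedF/+; Ddx4-Cre. Ddx4-Cre is a recombinase expressed in germ cells, and all 4 of these genotypes carry it. Each reaction held Drosophila S2 cells as a spike-in.

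Type 2 vomeronasal receptors are G protein-coupled receptors of class C, with a large extracellular domain that binds peptides and proteins, and they are made in sensory neurons of the basal layer of the vomeronasal organ. Each such neuron makes 1 or a few of them, and they detect pheromones such as exocrine gland-secreting peptides and major urinary proteins. H3K27me3 is set by PRC2, which needs the subunit Eed, and H2AK119ub by PRC1, whose catalytic subunits are Ring1 and Rnf2; both marks are known above all from repressed developmental genes with CpG-rich promoters.

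The data are 16 peak lists, 1 per group, with 49615 to 83994 peaks each, covering 9.87% to 29.3% of the autosomes. With 1 list per group there is no replicate check and no p-value, so differences are given as values, and the 95% intervals below cover counting error only. Marked genes are those with a peak over 1 bp or more of the gene span plus 1 kb on each side. A peak list cannot tell fewer oocytes with a mark from less mark per oocyte. A histone mark does not measure expression, so the cell type could not be checked: of 7 oocyte marker genes 0 to 5 carried H3K27me3 in the 10 lists, and of 5 granulosa cell marker genes 4 or 5. The files hold no reads, so sequencing depth is unknown.

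The receptors were marked less often than protein-coding genes at large, in all 16 lists. H3K27me3 lay over 44 of 122 receptors in WT oocytes at E18.5 (36.1%, exact interval 27.6% to 45.3%), 45 at P1 (36.9%, 28.3% to 46.1%), 37 at P6 (30.3%, 22.3% to 39.3%) and 21 at P7 (17.2%, 11.0% to 25.1%). Over all autosomal protein-coding genes the same shares were 46.0%, 45.5%, 47.7% and 50.3%. The family and the genome thus ran apart from P1 onward. Other chemosensory receptor families, given below, were also marked less often at P7 than at P6. Receptor genes are long, with a median window of 26.6 kb against 19.6 kb over all genes, and among the 12565 genes with windows of 10.4 to 145 kb, the range of the receptors, the marked shares were 44.1%, 43.8%, 46.3% and 50.6%.

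The peaks that did lie over receptors took up little of them. At P6, H3K27me3 covered 5.90% of the receptors' summed windows, against 19.5% of the windows of all genes, and at P7 it covered 1.81% against 24.0%. The median length covered in a marked receptor was between 2.15 kb in PRC1ctrl oocytes at P7 and 5.79 kb in PRC1cKO oocytes at P6. Ranked by total signal within their own list, the peaks over receptors had a median percentile between 19.0 (WT, P7) and 46.2 (PRC2cKO, P6) for H3K27me3, so most were among the weaker peaks. At P7 in WT oocytes, 20 of the 21 peaks over receptors were in the lower part of the list, under its median.

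H2AK119ub was scarcer still on this family, although in each group profiled for both marks it touched more of all genes than H3K27me3 did. It lay over 18 of 122 receptors in WT oocytes at E18.5 (14.8%, 8.98% to 22.3%), 26 at P1 (21.3%, 14.4% to 29.6%), 5 at P6 (4.10%, 1.34% to 9.31%) and 12 at P7 (9.84%, 5.19% to 16.6%). The shares over all genes were 75.7%, 66.8%, 72.9% and 57.3%. At P6 the share over all genes was 17.8 times that of the receptors. By length the order of the marks over the autosomes differed between lists: H2AK119ub covered 29.3% and H3K27me3 20.9% in WT oocytes at P6, but 9.87% and 24.9% at P7.

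**Figure D1:**
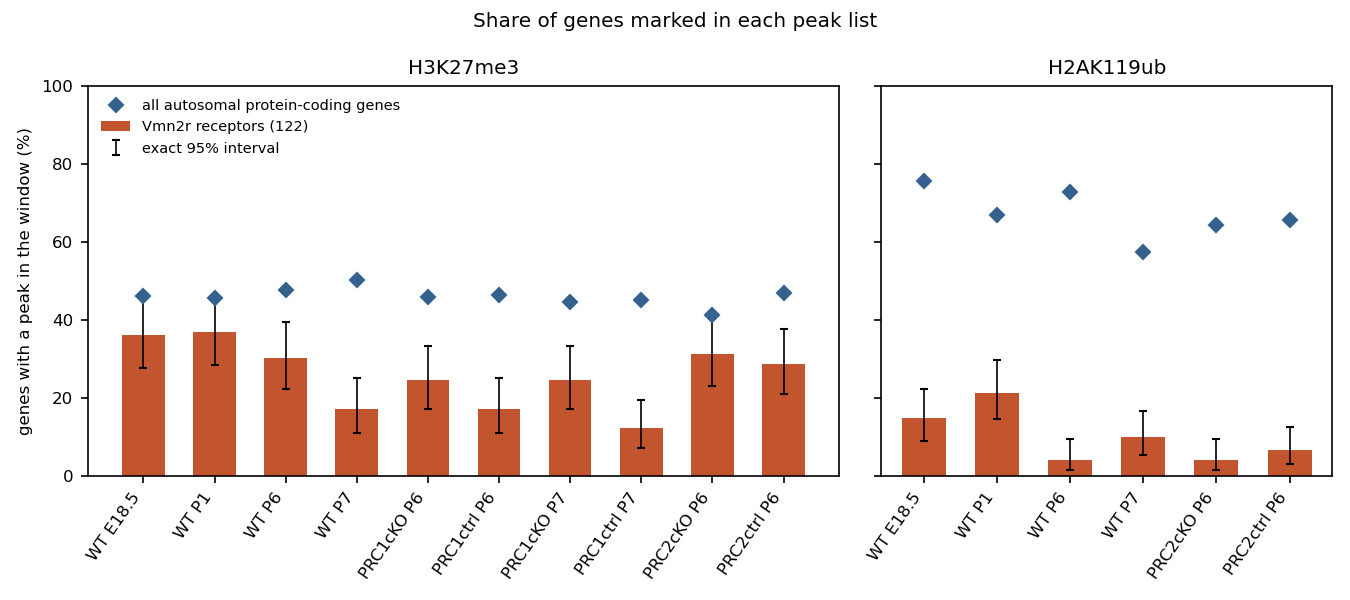
Share of the 122 type 2 vomeronasal receptors with a peak in each of the 16 lists (bars, with exact 95% intervals that cover counting error only) and of all autosomal protein-coding genes (diamonds), with H3K27me3 on the left and H2AK119ub on the right. Every bar is below its diamond, from 12.3% against 45.0% (PRC1ctrl, P7) to 36.9% against 45.5% (WT, P1) for H3K27me3, and at most 21.3% for H2AK119ub.

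The other chemosensory receptor families were marked less often than genes at large as well. Type 1 vomeronasal receptors, an unrelated family of the apical layer of the same organ, were marked by H3K27me3 in 2.62% to 14.4% of 229 genes over the 10 lists, and olfactory receptors (Olfr) in 13.9% to 32.7% of 1103 genes. The 128 placed Vmn2r pseudogenes were marked in 12.5% to 25.0%. H2AK119ub was scarce in these families too. In the 6 lists it lay over 0.437% to 3.93% of type 1 receptors and 5.71% to 10.3% of olfactory receptors. Within each list of either mark the type 2 receptors were marked more often than the type 1 receptors. A longer window leaves more room for a peak, and window lengths were not matched between these families. At P1, P6 and P7 in WT oocytes the H3K27me3 shares were 36.9%, 30.3% and 17.2% for type 2 receptors. They were 14.4%, 7.42% and 4.37% for type 1 receptors, and 28.8%, 29.3% and 15.5% for olfactory receptors. The lower share at P7 than at P6 was thus not particular to the type 2 receptors.

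Of the 122 receptors, 58 had no peak of either mark in any of the 16 lists (47.5%, against 12.5% of all genes). H3K27me3 lay over 57 in at least 1 of 10 lists (46.7%, against 63.0%) and over 21 in at least 8 (17.2%, against 38.6%), while 8 were marked in 1 list only (6.56%, against 5.51%). Of the receptors marked at all, 36.8% were thus in at least 8 lists, against 61.2% of all genes marked at all. H2AK119ub lay over 34 in at least 1 of 6 lists (27.9%, against 82.9%). Both marks were found at some point on 27 receptors, H3K27me3 alone on 30 and H2AK119ub alone on 7.

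The receptors in all 10 H3K27me3 lists were 5 (4.10%, against 30.2% of all genes), namely Vmn2r27, Vmn2r59, Vmn2r86, Vmn2r90 and Vmn2r112. Vmn2r90 (chr17:17703941-17734167), which opens a cluster on chromosome 17, had 21.3, 26.8, 14.3 and 2.60 kb covered over the WT stages (E18.5, P1, P6 and P7). It had 22.9 kb in PRC1cKO against 13.7 kb in PRC1ctrl oocytes at P6, 18.0 against 3.12 kb at P7, and 14.9 kb in PRC2cKO against 12.3 kb in PRC2ctrl oocytes. Its level was lowest in the WT and PRC1ctrl lists of P7 and at least 12.3 kb in the other 8. Vmn2r27 (chr6:124191596-124231784) had 13.2, 13.5, 6.01 and 1.98 kb over the WT stages, 15.5 kb in PRC1cKO against 1.60 kb in PRC1ctrl oocytes at P6, 6.70 against 1.74 kb at P7, and 8.50 kb in PRC2cKO against 10.5 kb in PRC2ctrl oocytes. Vmn2r112 (chr17:22601148-22619133) varied less, with 8.06, 6.70, 4.01 and 3.35 kb over the WT stages, 6.40 kb in PRC1cKO against 4.28 kb in PRC1ctrl oocytes at P6, 7.17 against 5.60 kb at P7, and 3.47 kb in PRC2cKO against 6.90 kb in PRC2ctrl oocytes. Vmn2r59 stayed between 2.09 and 4.50 kb in all 10 lists. Vmn2r86, the shortest of these genes, had 0.223 to 2.45 kb. In WT oocytes at E18.5, P6 and P7 its peak reached only the 1 kb flank and not the gene itself.

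Vmn2r57 (chr7:41399732-41448641), marked in 9 lists, had the most covered length of any receptor in 7 of the 10, as a sum over its peaks. It had 26.0, 28.0, 26.8 and 4.14 kb of its 50.9 kb window covered over the WT stages. In PRC1cKO oocytes it had 32.2 kb, against 27.7 kb in PRC1ctrl oocytes at P6, and 17.9 kb against 0 at P7. PRC2cKO oocytes had 29.4 kb and PRC2ctrl oocytes 29.9 kb. The 7 lists from E18.5 to P6 had 26.0 to 32.2 kb here, split over 2 to 6 peaks of which the widest measured 11.0 to 30.0 kb, and the P7 lists of WT and PRC1ctrl oocytes stood apart at 4.14 kb and 0.

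For H2AK119ub, only Vmn2r1 and Vmn2r2 were marked in all 6 lists. Vmn2r2 lies inside the span of Vmn2r1 on the other strand, and the same peak served for both, so they are not separate observations. This peak sat at the 5′ end of the Vmn2r2 span, whose gene is on the minus strand of chromosome 3. It lay at 64170684 to 64173318 in WT oocytes at P6, and was 2.14 to 2.88 kb wide in the 6 lists. At P1 in WT oocytes a further peak of 5.32 kb lay within both spans, which brought the covered length to 7.80 kb for Vmn2r1 and 6.48 kb for Vmn2r2. The total signal of the shared peak at the 5′ end of Vmn2r2 ranked at percentile 75.6 to 99.0 within the lists, where the median over receptors was 24.5 to 46.7. In 8 of the 10 H3K27me3 lists a peak of 1.57 to 3.43 kb lay on the same stretch, and there was none in the PRC1ctrl and PRC2ctrl lists of P6. Vmn2r23 and Vmn2r27 followed with 5 H2AK119ub lists each.

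**Figure D2:**
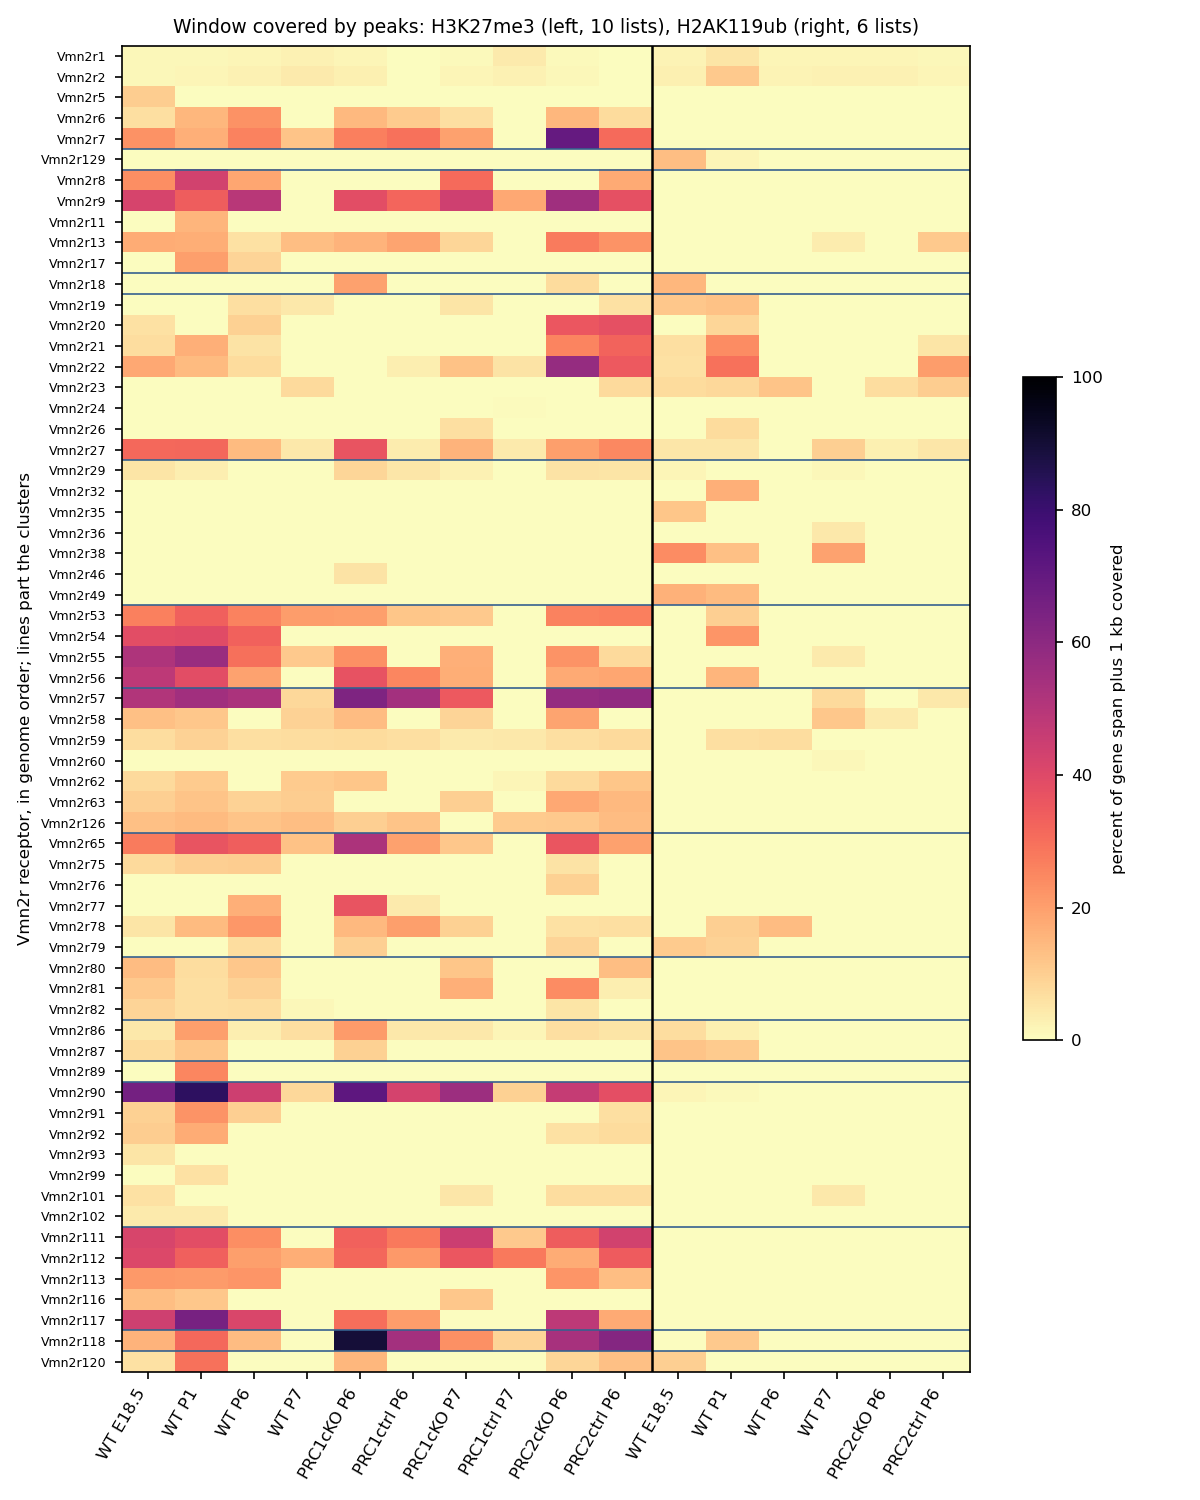
Percent of each receptor's window (gene span plus 1 kb) covered by peaks in the 16 lists, for the receptors with a peak in at least 1 list, in genome order with lines between clusters; the black line parts H3K27me3 from H2AK119ub. Dark rows such as Vmn2r57, Vmn2r90 and Vmn2r118 recur across H3K27me3 lists, and the WT and PRC1ctrl columns of P7 are pale.

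The receptors lie in 17 groups along 8 chromosomes when neighbours up to 1 Mb apart are joined, with 12 clusters of at least 2 receptors and 5 receptors that stand alone. Their coverage differed widely. Cluster coverage is taken over the whole span from the first to the last receptor. It includes sequence between receptors and, in some clusters, other protein-coding genes, so it is not the coverage of the receptors themselves. The cluster from Vmn2r29 to Vmn2r52 on chromosome 7 (7212996 to 10176286) holds 24 receptors, the most of any, and H3K27me3 covered 0 to 0.595% of it in the 10 lists. Only Vmn2r29 and Vmn2r46 of its 24 receptors were ever marked by H3K27me3, and Vmn2r29 is the receptor at its edge. H2AK119ub reached 3.78% of the span of this cluster in WT oocytes at P1 and 1.36% at E18.5. It marked 4 receptors each time, Vmn2r38 with 3.26 kb and 6.01 kb among them.

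The neighbouring cluster from Vmn2r53 to Vmn2r56 (chromosome 7, 12581470 to 12733320) was the opposite case. In WT oocytes, H3K27me3 covered 36.4% of it at E18.5, 36.0% at P1, 22.2% at P6 and 6.27% at P7, and all 4 of its receptors were marked up to P6. In PRC1cKO oocytes 18.4% was covered, against 8.36% in PRC1ctrl oocytes at P6, and 10.4% against 0 at P7. Vmn2r54 of this cluster had 8.85, 8.96 and 7.59 kb covered at E18.5, P1 and P6 in WT oocytes and no peak in the other 7 lists. Vmn2r55 had 18.3, 20.0, 10.5 and 3.96 kb over the 4 WT stages.

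The cluster from Vmn2r90 to Vmn2r110 on chromosome 17 (17703941 to 20596259) holds 22 receptors and 11 other protein-coding genes. Its span was covered to 2.61% to 11.3%, and 7 of its receptors were marked in at least 1 list. The cluster from Vmn2r111 to Vmn2r117 on the same chromosome (22547941 to 23479597, 8 receptors) reached 16.8% at P1 and had 5 marked receptors. The lone Vmn2r118 (chr17:55592329-55624735) had the highest coverage of any group, with 89.2% of its span in PRC1cKO oocytes against 53.3% in PRC1ctrl oocytes at P6. In WT oocytes its coverage was 17.0%, 33.5%, 11.7% and 0 from E18.5 to P7, so both lists of the PRC1 line at P6 were above the WT list. The lone Vmn2r28 had no peak of either mark in any list, and Vmn2r129 carried H2AK119ub alone.

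**Figure D3:**
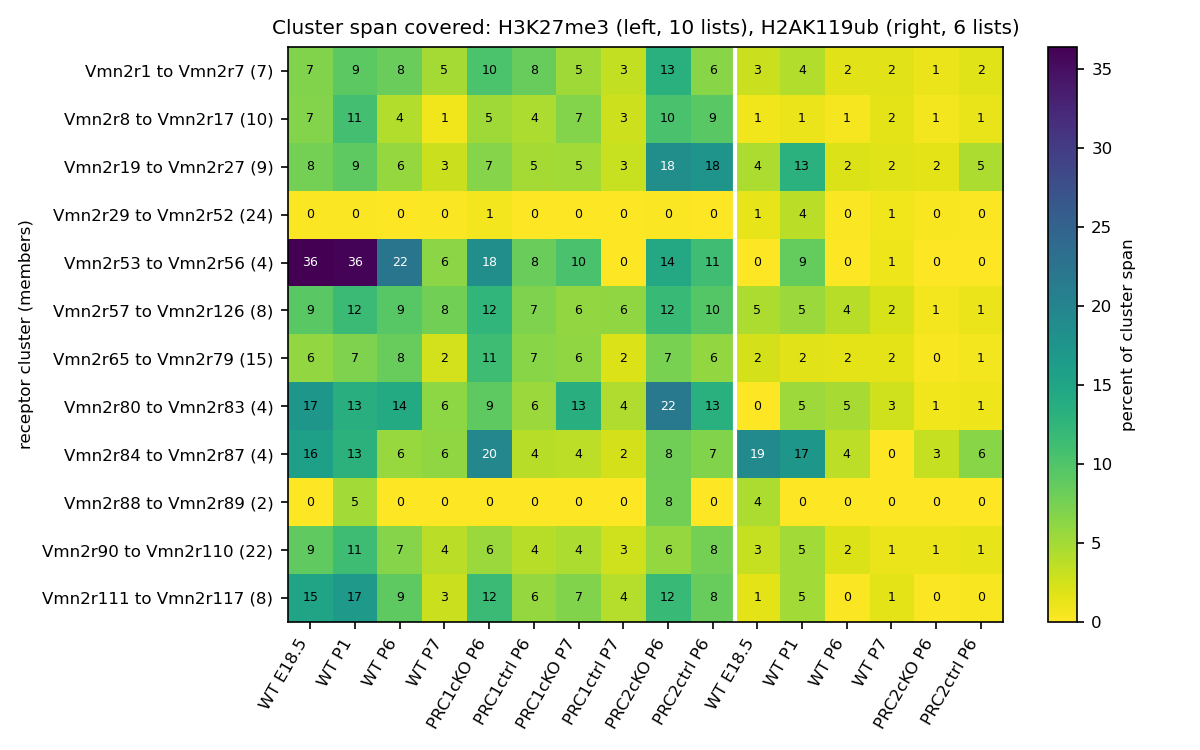
Percent of the span of the 12 clusters with at least 2 receptors that peaks cover in each list, printed rounded in each cell, with H3K27me3 left of the white line and H2AK119ub right of it. The span includes sequence between receptors and any other genes there. The cluster Vmn2r29 to Vmn2r52 stays under 1% for H3K27me3 in all 10 lists, and Vmn2r53 to Vmn2r56 reaches 36.4% at E18.5.

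Pooled over clusters, receptors at the ends were marked more often than those inside. In the 11 clusters of at least 4 receptors, H3K27me3 lay in at least 1 list over 18 of 22 end receptors (81.8%) and over 35 of 93 inner receptors (37.6%). The median end receptor was marked in 7 of 10 lists and the median inner one in 0. In 8 or more lists, 10 of 22 end receptors and 10 of 93 inner ones were marked. End receptors such as Vmn2r7, Vmn2r27, Vmn2r57, Vmn2r65, Vmn2r90 and Vmn2r111 were each marked in at least 9 lists. The nearest other protein-coding gene was not marked in every such case: AI987944, 6.35 kb from Vmn2r57, had no H3K27me3 in any list, while Cd163, 72.9 kb from Vmn2r27, had it in all 10. Each cluster gives only its first and last receptor as ends, so large clusters weigh more among the inner receptors. The largest clusters, with 24, 22 and 15 receptors, had 2, 7 and 6 ever marked by H3K27me3. End and inner receptors also share their cluster's sequence and neighbours. The part of cluster size, sequence and neighbours in this difference was not tested.

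**Figure D4:**
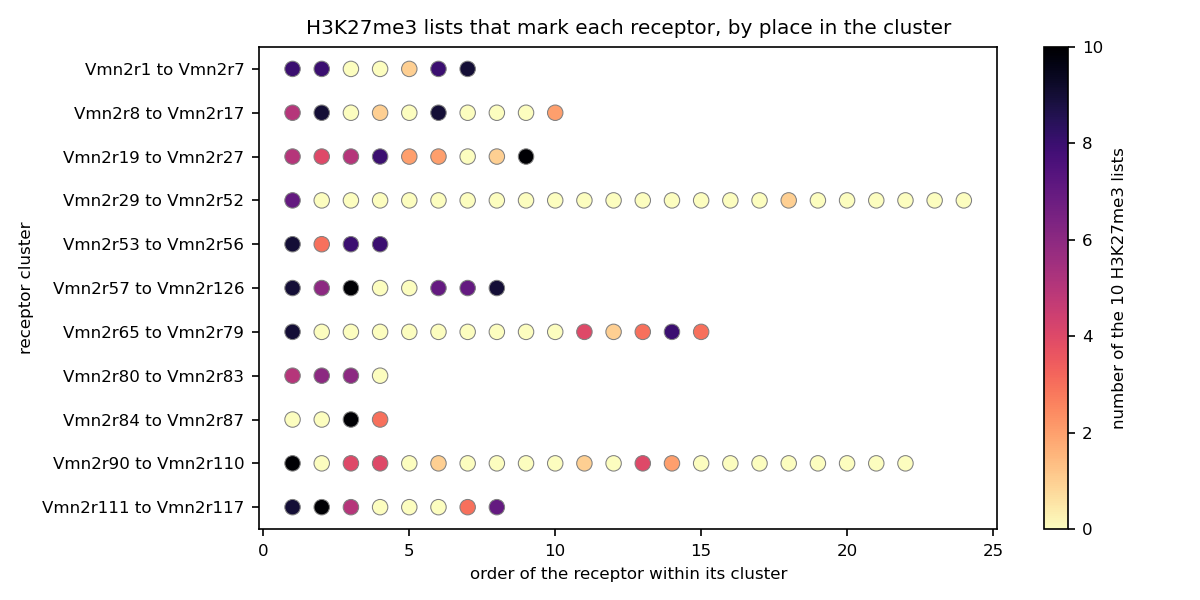
Each point is a receptor, placed by its order in its cluster (horizontal axis) for the 11 clusters of at least 4 receptors (rows), and coloured by the number of the 10 H3K27me3 lists that mark it. Dark points are found at the ends of many rows, as for Vmn2r57 (9 lists) and Vmn2r90 (10 lists), while the row of Vmn2r29 to Vmn2r52 is pale behind its end receptor.

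The peaks rarely lay at the listed start of a receptor gene. A start was available for 116 receptors and 16457 genes from RefSeq's promoter table (GRCm38.p6). The first listed start of each gene was used, so any other start was not counted. For Vmn2r2 this was 64137480, so the H2AK119ub peak at the 5′ end of its span did not count. H3K27me3 lay within 1 kb of the start of 0.862% to 8.62% of receptors in the 10 lists, against 28.1% to 38.5% of all genes. For H2AK119ub the range was 0 to 2.59%, against 38.6% to 62.2%. At P6 in WT oocytes, 35 of these receptors were marked by H3K27me3 and 28 of them had peaks elsewhere in the window only. Vmn2r53 had a marked start in 8 lists, Vmn2r9, Vmn2r56 and Vmn2r90 in 7 each, and Vmn2r118 in 6, and 17 receptors in all had one in at least 1 list.

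The promoters of the family are poor in CpG. In the window from 250 bases before to 50 bases after the start, receptors held a median of 1 CG pair (CG reads the same on both strands), against 14 over all genes, and 33 of 116 receptors (28.4%) held none, against 4.95% of all genes. Only Vmn2r29 held 10 or more (0.862% of receptors, against 58.5% of all genes). The promoters of type 1 receptors and of olfactory receptors had a median of 1 as well. The 17 receptors with H3K27me3 at the start in some list had a median of 2 CG pairs and the other 99 a median of 1.

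Promoter windows of 4 receptors are printed to show this range, from RefSeq on GRCm38.p6, 5′ to 3′ on the strand of the gene, with each CG in capitals. Vmn2r53 (chr7:12606495-12606794, minus strand) and Vmn2r56 (chr7:12733056-12733355, minus strand) are starts marked by H3K27me3 in many lists, Vmn2r29 (chr7:7278240-7278539, minus strand) has the most CG pairs of the receptors, and Vmn2r103 (chr17:19773113-19773412, plus strand) is 1 of 4 receptors that share the most among those with no peak in any list, with Vmn2r4, Vmn2r12 and Vmn2r14.
Vmn2r53: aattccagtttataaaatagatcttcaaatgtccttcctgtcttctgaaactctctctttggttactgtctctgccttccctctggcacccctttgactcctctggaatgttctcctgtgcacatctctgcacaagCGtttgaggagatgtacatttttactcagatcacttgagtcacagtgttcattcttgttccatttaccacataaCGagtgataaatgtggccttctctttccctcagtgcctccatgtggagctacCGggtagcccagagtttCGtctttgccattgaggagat
Vmn2r56: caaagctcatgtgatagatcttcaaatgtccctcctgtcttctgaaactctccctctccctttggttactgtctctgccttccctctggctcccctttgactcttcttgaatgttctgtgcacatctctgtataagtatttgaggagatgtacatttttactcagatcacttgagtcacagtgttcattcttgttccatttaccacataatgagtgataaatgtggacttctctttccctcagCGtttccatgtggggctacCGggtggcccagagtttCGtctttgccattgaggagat
Vmn2r29: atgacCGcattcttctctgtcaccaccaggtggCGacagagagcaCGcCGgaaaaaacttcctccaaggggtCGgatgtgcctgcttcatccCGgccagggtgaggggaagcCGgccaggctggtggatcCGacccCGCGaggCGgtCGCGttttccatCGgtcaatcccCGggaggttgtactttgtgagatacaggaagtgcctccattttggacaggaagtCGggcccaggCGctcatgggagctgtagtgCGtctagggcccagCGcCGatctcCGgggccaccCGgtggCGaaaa
Vmn2r103: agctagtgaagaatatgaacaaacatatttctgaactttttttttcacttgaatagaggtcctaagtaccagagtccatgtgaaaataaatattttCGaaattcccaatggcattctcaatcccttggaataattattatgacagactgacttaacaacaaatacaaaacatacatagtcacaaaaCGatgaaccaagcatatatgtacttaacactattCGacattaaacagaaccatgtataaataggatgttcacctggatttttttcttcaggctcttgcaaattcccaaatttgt

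Vmn2r53 has 4 CG pairs, Vmn2r56 has 3, Vmn2r29 has 23 and Vmn2r103 has 3. Vmn2r103 was picked for the highest count among receptors with no peak, where the median over all receptors was 1. Its nearness to Vmn2r53 and Vmn2r56 therefore says nothing about unmarked receptors at large. The CpG-rich start of Vmn2r29 had no H3K27me3 within 1 kb in any of the 10 lists and H2AK119ub in 2 of 6. The 7 H3K27me3 lists that mark Vmn2r29 do so elsewhere in its 67.3 kb window.

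Receptors of this family can be nearly identical, and the treatment of reads that match several copies is not stated in the labels. The promoter windows of 8 receptors were 100% identical to that of another receptor, and 37 of 116 were at least 95% identical. The window of Vmn2r126 (chr7:43018548-43018847, plus strand), printed as the example of such a pair, is the same as that of Vmn2r62.
Vmn2r126: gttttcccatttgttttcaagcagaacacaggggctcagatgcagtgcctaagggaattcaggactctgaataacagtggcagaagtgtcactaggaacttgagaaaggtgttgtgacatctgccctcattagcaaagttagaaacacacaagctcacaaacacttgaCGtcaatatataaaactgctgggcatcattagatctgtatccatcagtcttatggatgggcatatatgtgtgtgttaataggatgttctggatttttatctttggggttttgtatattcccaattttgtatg

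Reads from that stretch cannot be assigned to 1 of the 2 genes. Vmn2r126 was marked by H3K27me3 in 9 lists and Vmn2r62 in 7, away from the start in each case. Over the family, H3K27me3 lay in at least 1 list over 45.9% of receptors with a promoter identity of at least 95%, 39.3% of those from 90% to 95%, 46.7% of those from 80% to 90% and 47.6% of those under 80%. The bare cluster Vmn2r29 to Vmn2r52 had a median identity of 99.0%, and the cluster Vmn2r111 to Vmn2r117, with 5 of 8 receptors marked, one of 98.2%. The part of read assignment in the low shares was not tested.

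Across the WT stages the first question is what happened to the receptors' H3K27me3 from before birth to the start of growth. At P1 against E18.5, 5 receptors were newly marked (4.10%, against 3.08% of all genes) and 4 no longer (3.28%, against 3.51%). At P6 against P1, 3 were newly marked (2.46%, against 5.71%) and 11 no longer marked (9.02%, against 3.59%), among them Vmn2r120 with 0 kb at P6 against 11.3 kb at P1. With lists trimmed to equal covered length the net difference of P1 over E18.5 turned to -10.7 points, against 0.820 points untrimmed. The summed length was 264, 314, 207 and 63.2 kb at E18.5, P1, P6 and P7.

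The step from non-growing to growing oocytes had the largest net difference of the 3 for H3K27me3 in the lists as deposited; with lists trimmed to equal covered length it was -10.7 points, the same as for P1 over E18.5. At P7 against P6, 4 receptors were newly marked (3.28%, against 8.26% of all genes) and 20 were no longer marked (16.4%, against 5.66%). The net difference was -13.1 percentage points (interval -17.8 to -4.96), while that of all genes was 2.60 points. Summed over the receptors, 63.2 kb were covered at P7 and 207 kb at P6, a ratio of 0.306, where all genes gave 1.23. Of the receptors marked at P6, 45.9% were marked at P7, against 88.1% of all genes. The largest differences were those of Vmn2r57 (4.14 kb at P7 against 26.8 kb at P6), Vmn2r90 (2.60 against 14.3 kb) and Vmn2r78 (0 against 9.09 kb). Vmn2r58, Vmn2r62 and Vmn2r23 went the other way with 3.44, 3.28 and 3.18 kb at P7 against 0 at P6.

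Of the 53 receptors marked at some WT stage, 16 were marked at all 4 stages and 16 more at E18.5, P1 and P6 but not at P7. These stage patterns were not counted over all genes, so whether they differ from the genome is not known. Marked at all 4 were, for example, Vmn2r1, Vmn2r7, Vmn2r27, Vmn2r53, Vmn2r57, Vmn2r90 and Vmn2r112. Marked up to P6 but not at P7 were Vmn2r9, Vmn2r22, Vmn2r54, Vmn2r56, Vmn2r111, Vmn2r117 and Vmn2r118, among others. Another 6 were marked at E18.5 and P1 only, Vmn2r116 among them. Vmn2r23 and Vmn2r24 were the only receptors marked at P7 and at none of the earlier stages, with 3.18 kb and only 0.0610 kb. The lists differ in reach: the lowest total signal of a peak was 14139 at P7 and 9546 at P6, the P7 list covered 24.9% of the autosomes and the P6 list 20.9%, and the part of these differences in the result was not tested.

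H2AK119ub on the receptors took a different course. At P1 against E18.5, 10 receptors were newly marked (8.20%, against 2.32% of all genes) and 2 no longer (1.64%, against 11.2%). The clearest were Vmn2r22 with 12.6 kb at P1 against 2.65 kb at E18.5 and Vmn2r21 with 10.3 against 2.83 kb, neighbours on chromosome 6. At P6 against P1, 0 were newly marked (against 9.50% of all genes) and 21 were no longer marked (17.2%, against 3.39%). Among the 21, Vmn2r57, Vmn2r120 and Vmn2r29 had only 0.00600, 0.0200 and 0.0870 kb at P1. Vmn2r22, Vmn2r21 and Vmn2r56 had 0 kb at P6, against 12.6, 10.3 and 6.35 kb at P1. At P7 against P6, 10 were newly marked (8.20%, against 2.59% of all genes) and 3 no longer (2.46%, against 18.2%), with Vmn2r38 at 4.84 kb, Vmn2r58 at 4.39 kb and Vmn2r27 at 4.16 kb, each against 0 at P6. The net differences of these steps were opposite in sign to those of the genome, at 6.56 (interval 0.312 to 9.43), -17.2 (-17.2 to -11.7) and 5.74 points (-0.813 to 9.58) for the receptors, and -8.89, 6.11 and -15.6 points over all genes. The interval of the step to P7 spans 0, and with at least 10% of the window covered that difference was 0. The lists differ in reach here too: the lowest total signal of a peak was 3754 at P7 and 20369 at P6, and the lists covered 237 and 703 Mb, and the part of this in the result was not tested. With lists trimmed to equal covered length, 0 receptors had H2AK119ub at E18.5, P1 or P6. These lists kept only 5343 of 70017, 8405 of 69816 and 4836 of 58707 peaks. The P7 list, with 12 marked receptors, lost none.

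Most receptors with H3K27me3 had no H2AK119ub, the rarer mark on this family. Of the receptors with H3K27me3, 22.7% also had H2AK119ub in WT oocytes at E18.5, 40.0% at P1, 10.8% at P6 and 33.3% at P7. Over all genes with H3K27me3 the shares were 88.9%, 88.5%, 91.0% and 86.5%. Of the receptors with H2AK119ub in WT oocytes, 10 of 18 also had H3K27me3 at E18.5 and 18 of 26 at P1. The same held for 4 of 5 at P6 and 7 of 12 at P7. The matching share over all genes with H2AK119ub was not computed, so these counts are not read as a trait of the family. At P6 the receptors with both were Vmn2r1, Vmn2r2, Vmn2r59 and Vmn2r78. In PRC2cKO oocytes 4 receptors had both marks (10.5% of those with H3K27me3, against 85.3% of all genes), and in PRC2ctrl oocytes 6 (17.1%, against 87.7%).

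The PRC1 line asks what H3K27me3 did where PRC1 was targeted. More receptors were marked in PRC1cKO than in PRC1ctrl oocytes, at both stages, while the share of all genes was nearly equal. At P6, 30 receptors were marked in PRC1cKO (24.6%, 17.2% to 33.2%, against 45.8% of all genes) and 21 in PRC1ctrl oocytes (17.2%, 11.0% to 25.1%, against 46.3%). Newly marked were 10 (8.20%, against 3.93% of all genes), and 1, Vmn2r22, was no longer marked (0.820%, against 4.42%). The net difference was 7.38 points (1.57 to 8.97), against -0.486 points over all genes. Vmn2r27 had 15.5 kb in PRC1cKO against 1.60 kb in PRC1ctrl oocytes, Vmn2r118 30.9 against 18.7 kb and Vmn2r90 22.9 against 13.7 kb. Vmn2r78, Vmn2r22 and Vmn2r13 were lower, with 6.05 against 8.45 kb, 0 against 1.35 kb and 5.99 against 7.27 kb.

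At P7, H3K27me3 marked 30 receptors in PRC1cKO oocytes (24.6%, against 44.6% of all genes) and 15 in PRC1ctrl oocytes (12.3%, 7.05% to 19.5%, against 45.0%). Newly marked were 19 (15.6%, against 6.52% of all genes) and no longer marked 4 (3.28%, against 6.93%). The net difference was 12.3 points (4.23 to 17.0), against -0.409 points over all genes. The covered length summed to 154 kb in PRC1cKO and 34.8 kb in PRC1ctrl oocytes, a ratio of 4.43, against 0.775 over all genes. At P6 the sums were 249 and 142 kb, a ratio of 1.76, against 0.914. With windows of 1 kb around both gene ends in place of the whole gene, the net difference was 3.28 points at P7 and 4.10 points at P6, so the order of the stages turned. Besides Vmn2r57 and Vmn2r90, given above, Vmn2r111 had 12.2 kb in PRC1cKO against 3.01 kb in PRC1ctrl oocytes at P7. Vmn2r1 was lower, with 1.57 against 5.68 kb, as was Vmn2r126 with 0 against 3.40 kb.

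**Figure D5:**
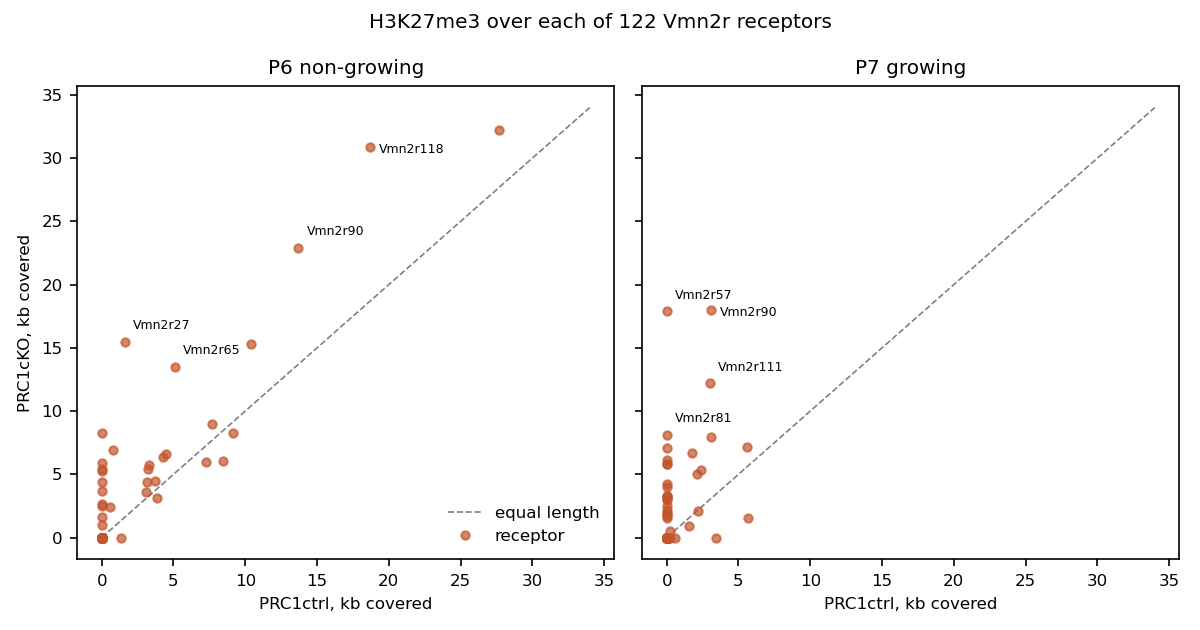
H3K27me3 covered length (kb) over each of the 122 receptors in PRC1cKO (vertical axis) and PRC1ctrl oocytes (horizontal axis), at P6 on the left and P7 on the right, with the line of equal length and the 4 largest differences of each stage named. More points lie above the line than under it, 26 against 5 at P6 and 27 against 7 at P7, and at P7 no receptor passes 5.68 kb in PRC1ctrl oocytes.

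Many of the receptors newly marked in PRC1cKO oocytes carried the mark in other lists, as did many of the other genes newly marked there. Of the 19 at P7, 17 were marked in WT oocytes at E18.5 (89.5%, against 69.3% of the 1340 genes newly marked), 14 in WT oocytes at P6 (73.7%, against 68.0%), 9 in WT oocytes at P7 (47.4%, against 41.3%) and 9 in PRC1ctrl oocytes at P6 (47.4%, against 60.9%). In the PRC2 line at P6, 16 of the 19 were marked in PRC2ctrl oocytes (84.2%, against 68.1%) and 14 in PRC2cKO oocytes (73.7%, against 60.7%). Of the 10 at P6, 7 were marked in WT oocytes at E18.5 (70.0%, against 444 of the 808 genes newly marked), 4 in WT oocytes at P6 (40.0%, against 42.9%) and 3 in PRC2ctrl oocytes at P6 (30.0%, against 46.9%). From P6 to P7 within the line, 9 receptors were newly marked and 9 no longer marked in PRC1cKO oocytes (7.38% each, against 5.23% and 6.40% of all genes). In PRC1ctrl oocytes 5 were newly marked and 11 no longer marked (4.10% and 9.02%, against 6.25% and 7.50%). The sums at P7 and P6 were 154 and 249 kb in PRC1cKO, and 34.8 and 142 kb in PRC1ctrl oocytes.

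Control lists of the same stage differed from each other by similar numbers of receptors as the knockouts did from their controls. PRC1ctrl oocytes at P6 had 1 receptor newly marked (0.820%, against 3.06% of all genes) and 17 no longer marked (13.9%, against 4.45%) relative to WT oocytes, a net difference of -13.1 points. PRC2ctrl oocytes had 6 newly marked (4.92%, against 2.51%) and 8 no longer marked (6.56%, against 3.33%) relative to WT oocytes. Relative to PRC1ctrl oocytes, PRC2ctrl oocytes had 15 newly marked (12.3%, against 4.14%) and 1 no longer marked (0.820%, against 3.57%). At P7, PRC1ctrl oocytes had 4 newly marked (3.28%, against 1.51%) and 10 no longer marked (8.20%, against 6.75%) relative to WT oocytes. For H2AK119ub at P6, PRC2ctrl oocytes had 5 newly marked (4.10%, against 2.42%) and 2 no longer marked (1.64%, against 9.58%) relative to WT oocytes. Vmn2r118 shows the spread between controls at P6, with 18.7 kb in PRC1ctrl and 21.3 kb in PRC2ctrl oocytes against 4.80 kb in WT oocytes, and Vmn2r55 the reverse, with 0 and 2.72 kb against 10.5 kb. With 1 list per group, the effect of the knockout and the difference between libraries cannot be told apart.

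In the PRC2 line, which targets Eed, the receptors' H3K27me3 differed little in count between PRC2cKO and PRC2ctrl oocytes. H3K27me3 peaks covered 399 Mb of the autosomes in PRC2cKO oocytes and 526 Mb in PRC2ctrl oocytes, and 41.2% and 46.8% of all genes were marked. Of the receptors, 38 were marked in PRC2cKO (31.1%, 23.1% to 40.2%) and 35 in PRC2ctrl oocytes (28.7%, 20.9% to 37.6%). Newly marked were 8 (6.56%, against 1.86% of all genes) and no longer marked 5 (4.10%, against 7.51%). The net difference was 2.46 points (-3.93 to 7.70), an interval that spans 0, against -5.65 points over all genes. The summed length was 284 kb in PRC2cKO and 241 kb in PRC2ctrl oocytes, a ratio of 1.18, against 0.726 over all genes. When the H3K27me3 lists were trimmed to equal covered length by total signal, the net difference was 23.0 points. The PRC2cKO list, the shortest by covered length, lost no peaks in this setting. The PRC2ctrl list kept 20241 of its 50611 peaks and 10 of its 35 marked receptors, so only the control side was trimmed.

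Vmn2r7 had 21.6 kb in PRC2cKO against 9.60 kb in PRC2ctrl oocytes, Vmn2r81 11.8 against 1.56 kb and Vmn2r22 24.7 against 15.0 kb. Vmn2r80, the neighbour of Vmn2r81, had 0 against 6.49 kb, Vmn2r91 0 against 3.45 kb and Vmn2r112 3.47 against 6.90 kb. For H2AK119ub, 5 receptors were marked in PRC2cKO (4.10%, against 64.2% of all genes) and 8 in PRC2ctrl oocytes (6.56%, against 65.7%). Vmn2r58 was the only one newly marked (0.820%, against 4.79%), with 1.55 against 0 kb. Vmn2r13, Vmn2r21, Vmn2r22 and Vmn2r57 were no longer marked (3.28%, against 6.33%), with 4.22, 2.28, 8.89 and 2.22 kb in PRC2ctrl oocytes. Vmn2r22 thus had more H3K27me3 and no H2AK119ub peak in PRC2cKO oocytes.

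Of 11 receptors of known ligand or family, 8 had H3K27me3 in at least 1 list and 5 in at least 8, against 57 and 21 of all 122 receptors. Vmn2r1 to Vmn2r7 are the family C receptors, made alongside another type 2 receptor in basal neurons. Of these, Vmn2r1, Vmn2r2, Vmn2r6 and Vmn2r7 had H3K27me3 in 8, 8, 8 and 9 lists, Vmn2r5 in 1, and Vmn2r3 and Vmn2r4 had no peak of either mark. Vmn2r53, reported to respond to Esp peptides, was marked by H3K27me3 in 9 lists, with 7.09, 9.07, 7.07 and 5.56 kb over the WT stages. It had 5.43 kb in PRC1cKO against 3.26 kb in PRC1ctrl oocytes at P6 and 2.97 kb against 0 at P7. Vmn2r116, the receptor of the male peptide Esp1, was marked in 3 lists (2.58 kb at E18.5 and 2.23 kb at P1 in WT oocytes, 2.17 kb in PRC1cKO oocytes at P7), and Vmn2r115, the receptor of the juvenile peptide Esp22, had no peak. Vmn2r88, reported as a receptor for hemoglobin and not among the 11, had no peak either. Vmn2r26, which responds to peptides that bind MHC class I molecules, had H3K27me3 in PRC1cKO oocytes at P7 (2.46 kb) and H2AK119ub in WT oocytes at P1 (2.86 kb).

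Most genes listed as working with the receptors in the vomeronasal organ were marked in every list. Of 16 signalling genes, 12 had H3K27me3 in all 10 lists, against 30.2% of all genes and 5 of the 122 receptors, and 14 had H2AK119ub in all 6, against 48.4% of all genes and 2 receptors. The 4 signalling genes that missed some H3K27me3 lists were Gnai2, Gng13, Calr4 and B2m. Gnao1, the G protein subunit of the basal neurons, had 75.7, 87.1, 122 and 152 kb of H3K27me3 over the WT stages, and Trpc2, the transduction channel of the organ, 10.4, 6.50, 9.81 and 6.90 kb. Of 14 genes of transcription and fate, 11 were marked by H3K27me3 in all 10 lists, among them Tfap2e and Bcl11b, which act in basal neuron identity. Of 15 class C relatives outside the family, such as the calcium-sensing receptor Casr and the metabotropic glutamate receptors, 13 were.

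The nonclassical class I genes of the H2-Mv group, which are made together with type 2 receptors in basal neurons, were all 9 marked by H3K27me3 in each of the 4 WT lists. At P6, 6 of the 9 were marked in PRC1cKO and 6 in PRC1ctrl oocytes, and at P7, 8 in PRC1cKO and 7 in PRC1ctrl oocytes. The 37 genes of candidate ligands are 15 exocrine gland-secreting peptides (Esp) and 22 major urinary proteins (Mup). Of the Mup genes 1, 3, 3 and 18 were marked by H3K27me3 over the WT stages, and of the Esp genes 1 at E18.5 and 0 at the later stages, where the shares of all genes were 46.0%, 45.5%, 47.7% and 50.3%. At P7, 12 Mup genes were marked in PRC1cKO and 15 in PRC1ctrl oocytes. Mup5 was the only one of the 37 in all 10 lists, with 22.1 kb at P7 against 7.66 kb at P6 in WT oocytes. The Mup genes, like the receptors, are near copies of each other. Of 7 formyl peptide receptors, Fpr1 was marked in all 10 lists and 4 in no list.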

How the data were processed

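The 16 peak lists were deposited by the authors, 1 per group of 2 samples and without a header; from the values, the deposited signal columns hold whole numbers, of which the total signal per peak (column 4) served to rank and trim peaks within a list. All 16 lists were used, and 0 columns belonged to other samples. The submitters' processing notes name SAMtools, deepTools, Bowtie2, Trim Galore 0.6.10 and Picard 3.0.0, with the builds GRCm38, mm10 and dm6; per the labels, reads were 150 bp. The peak caller, its threshold, the pooling of samples, the treatment of reads with several matches and any scaling by the S2 spike-in were not given in the sources used here, so signal scale and depth per sample are unknown.

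Genes came from RefSeq (GRCm38.p6). Genes listed within the first 3 Mb of an autosome are unplaced sequence and were left out. The marked share, its exact Clopper-Pearson interval (95%) and the covered length were computed per list over the gene span plus 1 kb. Changes are counts of receptors marked in 1 list only, with an exact interval conditional on those receptors. Neighbours can share a peak, so receptors are not independent. Promoter identity is 1 minus the global edit distance over the window length (edlib 1.3.9). Overlaps were computed with numpy 2.4.6 and pandas 2.3.3, intervals with scipy 1.17.1, and tested on simulated data.

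The receptors and the lists of related genes were chosen with earlier results of these data known. Named are receptors in the most lists, the 3 largest changes each way per comparison, receptors of known ligand or family, the longest marked one per cluster, and up to 4 genes per related list; Vmn2r9, Vmn2r24, Vmn2r28, Vmn2r46, Vmn2r54, Vmn2r88, Vmn2r103, Vmn2r117, Tfap2e, Gnai2, Gng13, Calr4, B2m and genes next to receptors, given outside this rule, were chosen after their values were seen. Alternatives changed the window, the overlap, the peaks kept and the receptors used. Equal covered length dropped the peaks of lowest total signal until a list matched the shortest list of its mark. Those shortest lists, PRC2cKO at P6 for H3K27me3 and WT at P7 for H2AK119ub, lost no peaks.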

Additional observations from a re-analysis of the deposited data

Results flagged for a closer look

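Of the 45 receptors named by rule, 14 had more H3K27me3 in PRC1cKO than in PRC1ctrl oocytes at both P6 and P7, and 8 had differences of opposite sign at the 2 stages. These 8 stand out for that reason. The difference between the stages was not tested, since each group has 1 list. The naming rule takes in the largest changes of these same comparisons, so both counts describe the named receptors only. The PRC1cKO minus PRC1ctrl difference was 2.47 kb at P6 and -4.11 kb at P7 for Vmn2r1, and 1.61 and -0.610 kb for the overlapping Vmn2r2. It was -0.920 kb at P6 and 6.13 kb at P7 for Vmn2r7. For Vmn2r13 it was -1.28 and 3.27 kb, for Vmn2r22 -1.35 and 2.98 kb, and for Vmn2r78 -2.40 and 4.02 kb. For Vmn2r62 it was 3.72 and -0.547 kb, and for Vmn2r59 0.480 and -0.0600 kb.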

How the results depend on the processing

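No paired analysis was possible because each group has 1 pooled list, which carries no replicate number; for the same reason no replicate could be left out. The planned setting without receptors of near-identical proteins was not run, as no protein table was used here, and identity of promoters took its place after the data were seen. With no flank, without the largest cluster and without near-identical promoters, all 16 shares stayed within their intervals. With 1 kb around both gene ends, the shares that left their intervals were H3K27me3 13.1% (WT E18.5), 16.4% (WT P1), 14.8% (WT P6), 5.74% (WT P7), 10.7% (PRC1cKO P6), 6.56% (PRC1ctrl P6), 8.20% (PRC1cKO P7), 4.92% (PRC1ctrl P7), 14.8% (PRC2cKO P6), 11.5% (PRC2ctrl P6) and H2AK119ub 5.74% (WT E18.5), 8.20% (WT P1), 0.820% (WT P6), 1.64% (WT P7), 0.820% (PRC2cKO P6), 0.820% (PRC2ctrl P6). With at least 10% of the window covered, the shares that left their intervals were H3K27me3 20.5% (WT E18.5), 27.9% (WT P1), 18.0% (WT P6), 7.38% (WT P7), 13.9% (PRC1cKO P7), 3.28% (PRC1ctrl P7), 18.9% (PRC2cKO P6), 18.9% (PRC2ctrl P6) and H2AK119ub 6.56% (WT E18.5), 9.02% (WT P1), 1.64% (WT P7), 0% (PRC2cKO P6), 2.46% (PRC2ctrl P6). Without the weakest 25% of peaks, the shares that left their intervals were H3K27me3 24.6% (WT P1), 20.5% (WT P6), 6.56% (WT P7), 10.7% (PRC1ctrl P6), 6.56% (PRC1ctrl P7), 20.5% (PRC2ctrl P6) and H2AK119ub 12.3% (WT P1). With lists at equal covered length, the shares that left their intervals were H3K27me3 18.0% (WT P1), 12.3% (WT P6), 1.64% (WT P7), 8.20% (PRC1cKO P6), 4.92% (PRC1ctrl P6), 16.4% (PRC1cKO P7), 1.64% (PRC1ctrl P7), 8.20% (PRC2ctrl P6) and H2AK119ub 0% (WT E18.5), 0% (WT P1), 0% (WT P6), 0% (PRC2ctrl P6). With lists at an equal number of peaks, the shares that left their intervals were H3K27me3 21.3% (WT E18.5), 23.0% (WT P1), 18.0% (WT P6), 9.02% (WT P7), 6.56% (PRC1ctrl P7) and H2AK119ub 13.1% (WT P1).

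No net change whose interval excluded 0 changed sign under the 8 settings, though 2 of H2AK119ub became 0 at equal covered length. Net changes in percentage points that left their intervals were the following. With 1 kb around both gene ends: -7.38 (H2AK119ub, WT P6 over WT P1), 3.28 (H3K27me3, PRC1cKO P7 over PRC1ctrl P7). With at least 10% of the window covered: 7.38 (H3K27me3, WT P1 over WT E18.5), -7.38 (H2AK119ub, WT P6 over WT P1). Without the weakest 25% of peaks: -9.02 (H2AK119ub, WT P6 over WT P1), 9.02 (H3K27me3, PRC1cKO P6 over PRC1ctrl P6). With lists at equal covered length: -10.7 (H3K27me3, WT P1 over WT E18.5), 0 (H2AK119ub, WT P1 over WT E18.5), 0 (H2AK119ub, WT P6 over WT P1), 9.84 (H2AK119ub, WT P7 over WT P6), 23.0 (H3K27me3, PRC2cKO P6 over PRC2ctrl P6). With lists at an equal number of peaks: -9.02 (H2AK119ub, WT P6 over WT P1), 9.02 (H3K27me3, PRC1cKO P6 over PRC1ctrl P6). Without the largest cluster: -17.3 (H2AK119ub, WT P6 over WT P1). Without near-identical promoters: 9.41 (H3K27me3, PRC1cKO P6 over PRC1ctrl P6). At equal covered length, H3K27me3 covered 5.69% (WT P1), 3.61% (WT P6), 0.877% (WT P7), 4.79% (PRC1cKO P6), 2.36% (PRC1ctrl P6), 1.23% (PRC1ctrl P7), 3.83% (PRC2ctrl P6) of the summed cluster span. At equal covered length, H2AK119ub covered 0.120% (WT E18.5), 0.376% (WT P1), 0.263% (WT P6), 0.216% (PRC2cKO P6), 0.254% (PRC2ctrl P6) of the summed cluster span. With neighbours joined up to 0.25 Mb there were 26 groups of receptors.

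The cause of these shifts was not tested. Limits: 1 list per group, no stated threshold or scaling, and peaks over receptors that rank mostly low by signal within their list.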
